A study of Mus musculus with 4 samples.

Results

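Osteoclast differentiation genes were examined in bone marrow (BM) macrophages that had or had not taken up apoptotic prostate cancer cells. They are 7 genes, Acp5, Nfatc1 (ENSMUSG00000033016), Dcstamp, Ocstamp, Tnfrsf11a, Calcr and Oscar, chosen by name from the 31053 genes counted. All 7 have a row in every library. BM macrophages came from male C57BL/6J mice, 4–6 weeks old in the study's methods and 4 weeks old in its description of the single-cell experiments. The cells were grown for 4 days with M-CSF, and no RANKL is named among the culture conditions. Efferocytic BM macrophages were sorted as F4/80+CFSE+ cells after 16–18 h with RM1 cells, a mouse prostate cancer line killed by UV light and stained with the dye CFSE, at a ratio of 1:1. Non-efferocytic BM macrophages were F4/80+ cells cultured without RM1 cells. Each of 2 experiments gave 1 single-cell library of each group (10X Genomics 3′ kit), which makes 2 libraries in each group. F4/80 is a macrophage surface protein. The study calls the experiments independent and states in general that several mice gave the BM macrophages, but the sources used here do not tie mice to libraries, so that the spread between libraries may be partly technical. A CFSE+ cell has taken up or bound RM1 material, and the comparison therefore joins co-culture with RM1 cells and sorting for their uptake.

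Osteoclasts are the bone-resorbing cells of the skeleton and arise from the same myeloid precursors as BM macrophages. M-CSF keeps these precursors alive, and the cytokine RANKL, bound by its receptor RANK (Tnfrsf11a), starts differentiation. The signal runs through TRAF6, NF-κB, c-Fos and calcineurin to the transcription factor NFATc1, which switches on the genes of fusion and resorption. Dcstamp and Ocstamp encode membrane proteins needed for precursors to fuse into multinucleated cells. Acp5 encodes tartrate-resistant acid phosphatase, the enzyme stained to identify osteoclasts and also made by some macrophages. Oscar encodes an immunoglobulin-like receptor that signals with the FcRγ chain, and Calcr encodes the calcitonin receptor, a marker of mature osteoclasts.

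The genes lie apart in the genome. In GENCODE vM21 on GRCm38 (mm10), Tnfrsf11a (ENSMUSG00000026321) is on chromosome 1 at 105780718–105847981 on the plus strand, and Ocstamp (ENSMUSG00000027670) is on chromosome 2 at 165393760–165400405 on the minus strand. Calcr (ENSMUSG00000023964) is on chromosome 6 at 3685680–3764714 and Oscar (ENSMUSG00000054594) on chromosome 7 at 3609813–3616157, both on the minus strand. Acp5 (ENSMUSG00000001348) is on chromosome 9 at 22126727–22135711 on the minus strand and is overlapped by 6530413G14Rik on the opposite strand. Dcstamp (ENSMUSG00000022303) is on chromosome 15 at 39745930–39760938 on the plus strand. RefSeq (GRCm38.p6) start sites were matched for 4 of the 7 genes, with 3 windows for Acp5, 2 for Calcr and 1 each for Tnfrsf11a and Oscar. Nfatc1, Dcstamp and Ocstamp had none. The 250 bases before the outermost start of Acp5, an abundant gene here, and those of Oscar, a gene near 0 here, are shown since both are known targets of NFATc1 and Nfatc1 was measured beside them. Capitals mark GGAAA, the core that NFAT proteins bind, which reads TTTCC on the other strand. The Acp5 window is chr9:22135747-22135996 and the Oscar window chr7:3616158-3616407, both written 5′ to 3′ on the minus strand.
Acp5: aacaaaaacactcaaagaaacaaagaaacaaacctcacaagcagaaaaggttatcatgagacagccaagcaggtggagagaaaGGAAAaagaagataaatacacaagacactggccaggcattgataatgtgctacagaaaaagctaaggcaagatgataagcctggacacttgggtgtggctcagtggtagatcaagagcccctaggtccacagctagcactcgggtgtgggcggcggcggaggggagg
Oscar: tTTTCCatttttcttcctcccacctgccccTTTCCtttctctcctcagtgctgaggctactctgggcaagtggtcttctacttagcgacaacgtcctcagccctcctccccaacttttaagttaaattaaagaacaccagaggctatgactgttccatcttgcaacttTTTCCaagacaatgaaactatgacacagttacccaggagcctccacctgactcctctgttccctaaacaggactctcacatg
The Acp5 window shown holds GGAAA 1 time on either strand and the Oscar window 3 times. The inner Acp5 windows, not shown, hold it 1 and 2 times, and which start these cells use was not examined. The Tnfrsf11a window, in which 73.6% of bases are G or C, holds none. Of 32851 such windows of all genes, 55.6% hold the motif, so that its presence is common. The AP-1 motif TGANTCA, searched on both strands and present in 6.75% of all windows, was in none of the windows of the 7 genes.

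UMI counts were used as deposited. A UMI (unique molecular identifier) marks 1 captured RNA molecule, so that a molecule counts once whatever its length. A barcode counted as a cell with 200 genes and 1000 UMIs or more, of which no more than 10% were mitochondrial. This kept 6695 to 13411 cells and 101216659 to 155224183 UMIs in a library. The median cell held 11146 and 9600 UMIs in the non-efferocytic libraries of Experiments 1 and 2, and 17171 and 17475.5 in the efferocytic ones. The libraries of Experiment 2 shared 118 cell barcodes, 1.40% of the smaller library, against 14 to 23 for the other pairs. All 10 macrophage markers were detected in every library, with a summed level of 39508 and 34100 CPM (UMIs per 1000000 UMIs of cells) in the non-efferocytic libraries and of 31489 and 23883 CPM in the efferocytic ones. The 9 neutrophil markers summed to 3046 and 3339 CPM in the non-efferocytic libraries and to 953 and 705 CPM in the efferocytic ones, and the 6 monocyte markers to 224 and 247 against 79.1 and 61.9 CPM. The 7 fibroblast markers summed to 147 and 122 CPM against 47.1 and 52.7 CPM. The part of these cells in the results below was not tested. For the called genes, the fit was repeated without clusters of other cell types or of few UMIs (a median of 1171 to 3108 UMIs), and calls that ended there are given.

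The 7 genes fell into 3 levels (plot of level by library). Tnfrsf11a, Acp5 and Nfatc1 were present at 21.4 to 44.9 CPM in all 4 libraries. Dcstamp lay at 0.206 to 0.682 CPM and Ocstamp at 0.0258 to 0.101 CPM. Oscar gave 5 UMIs over the cells of all libraries and Calcr none. On the CPM scale, Tnfrsf11a was the highest of the 7 genes in 3 libraries, and in the non-efferocytic library of Experiment 2 its counting interval overlapped that of Acp5, which lay above it. Acp5 lay above Nfatc1 in all 4 libraries, but their 95% counting intervals overlapped in the non-efferocytic library of Experiment 1 and the efferocytic library of Experiment 2, and in both groups their means differed by less than 2 SD of Acp5.

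**Figure D1:**
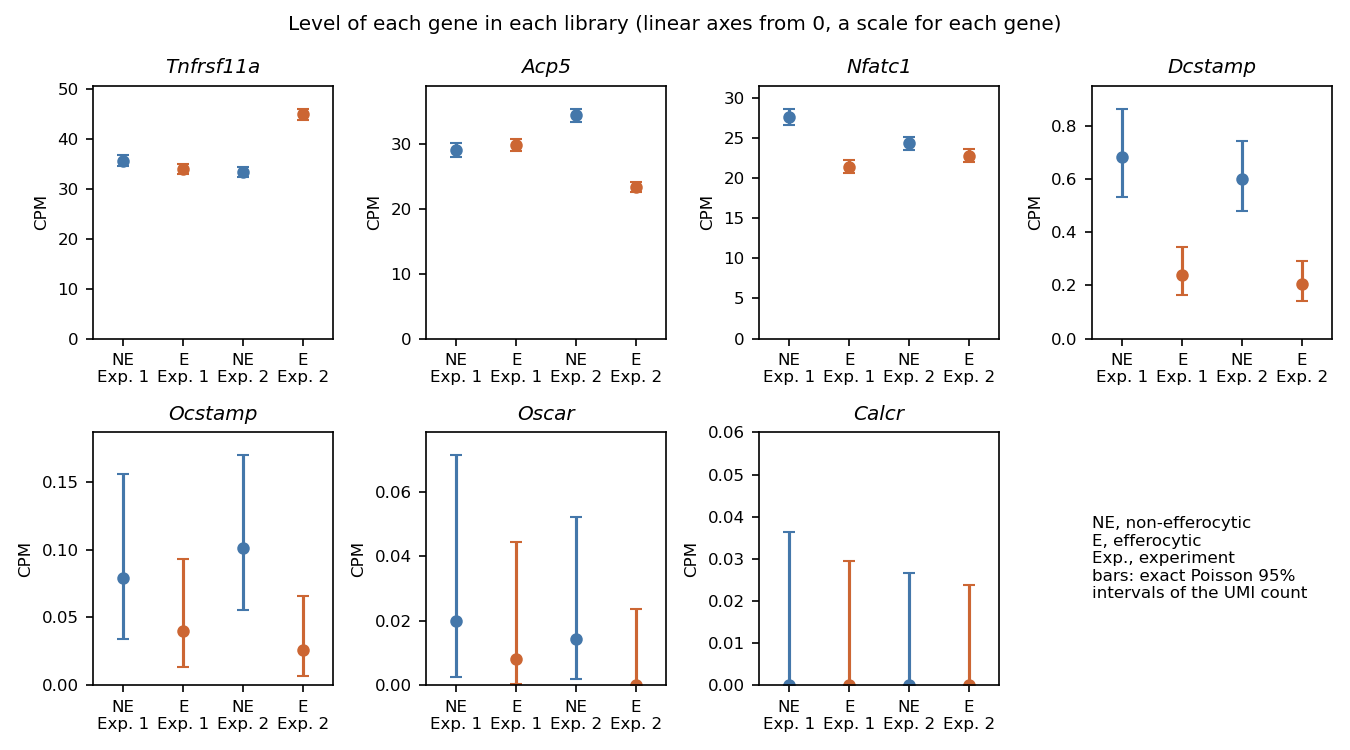
Level of each of the 7 genes (CPM, linear axes from 0 with a scale for each gene) in the non-efferocytic (NE) and efferocytic (E) libraries of both experiments, with exact Poisson 95% intervals of the UMI counts. Dcstamp lies at 0.682 and 0.600 CPM in the non-efferocytic libraries and at 0.240 and 0.206 CPM in the efferocytic ones, whereas Acp5 and Tnfrsf11a separate the groups in Experiment 2 more than in Experiment 1.

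Of the 5 genes with enough UMIs to be tested, 1 was called between the groups, Dcstamp, which was lower in efferocytic BM macrophages. The share of all tested genes called was 38.9%, with 19.9% higher and 19.0% lower. Summed UMIs were fitted by edgeR (quasi-likelihood, block for the experiment) over 13869 genes, with Benjamini-Hochberg adjustment. None of the 7 genes was called higher by edgeR. At an unadjusted p under 0.05, 1 was higher (Tnfrsf11a) and 1 lower (Dcstamp), and DESeq2 called 0 in either direction. Of all 13869 tested genes, 6829 had an unadjusted p under 0.05 by edgeR, and DESeq2 called 1987 higher and 1417 lower. In 3 of the 5 genes (Nfatc1, Dcstamp and Ocstamp) both efferocytic libraries lay below both non-efferocytic ones. This held for 44.7% of all genes tested, and groups without overlap in either direction for 66.9%.

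Tnfrsf11a, the RANKL receptor, gave 3604 UMIs in the non-efferocytic and 4245 in the efferocytic library of Experiment 1, and 4617 and 6971 in those of Experiment 2. These are levels of 35.6 and 34.0 CPM in Experiment 1 and of 33.4 and 44.9 CPM in Experiment 2. The efferocytic library of Experiment 2 stood above the other 3, which lay close together, so that the groups overlapped. The ratio of efferocytic to non-efferocytic CPM was 0.954 in Experiment 1 (95% counting interval 0.912–0.997) and 1.35 in Experiment 2 (1.30–1.40). The log2 fold change over both experiments was 0.29 (SE 0.105), which did not pass the threshold (edgeR, adjusted p = 0.0599). That fit scales libraries by a further factor (TMM), whereas CPM use the UMI totals alone. With libraries scaled to their totals the log2 fold change was 0.18 (edgeR, adjusted p = 0.205). Without clusters of few UMIs or of other cell types the log2 fold change was 0.23 (edgeR, adjusted p = 0.134). It passed with 0.91 (edgeR, adjusted p = 0.00291) when libraries were scaled to the number of cells, with 0.31 (adjusted p = 0.0284) without a filter on genes, with 0.28 (adjusted p = 0.0497) in cells with at most 5% mitochondrial UMIs, and with 0.46 (adjusted p = 0.0351) without the efferocytic library of Experiment 1. Without the efferocytic library of Experiment 2 it was 0.13 (adjusted p = 0.409).

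Nfatc1, the transcription factor downstream of RANK, gave 2791 and 2676 UMIs in Experiment 1 (27.6 CPM in the non-efferocytic and 21.4 CPM in the efferocytic library) and 3367 and 3539 UMIs in Experiment 2 (24.3 and 22.8 CPM). Both efferocytic libraries lay below both non-efferocytic libraries, by little in Experiment 2. The CPM ratio was 0.776 (95% counting interval 0.736–0.819) in Experiment 1 and 0.937 (0.893–0.982) in Experiment 2. The log2 fold change of -0.12 (SE 0.0841) did not pass the test (edgeR, adjusted p = 0.280). It was -0.028 (adjusted p = 0.922) without the non-efferocytic library of Experiment 1 and -0.21 (adjusted p = 0.332) without that of Experiment 2.

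Acp5, the acid phosphatase of the resorbing cell, gave 2949 and 3728 UMIs in Experiment 1 (29.1 CPM in the non-efferocytic and 29.8 CPM in the efferocytic library) and 4766 and 3630 UMIs in Experiment 2 (34.4 and 23.4 CPM). Experiment 2 thus held both the highest and the lowest of the 4 levels, and those of Experiment 1 lay between them. The CPM ratio was 1.02 (95% counting interval 0.975–1.07) in Experiment 1 and 0.679 (0.650–0.709) in Experiment 2. The log2 fold change of -0.16 (SE 0.141) did not pass the test (edgeR, adjusted p = 0.406) and turned to 0.06 (adjusted p = 0.792) without the efferocytic library of Experiment 2. Among cells with an Acp5 UMI the mean was 1.54 to 1.72 UMIs, and single cells reached 16 to 21 UMIs in every library, the widest range of the 7 genes.

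Dcstamp, the fusion protein, gave 69 UMIs in 34 cells of the non-efferocytic library of Experiment 1 and 83 UMIs in 63 cells of that of Experiment 2. The efferocytic libraries gave 30 UMIs in 21 cells and 32 UMIs in 19 cells, respectively. The levels of 0.682 and 0.600 CPM in non-efferocytic libraries lay above those of 0.240 and 0.206 CPM in efferocytic libraries, with no overlap. The non-efferocytic level was 2.84-fold higher (95% counting interval 1.83–4.52) in Experiment 1 and 2.91-fold higher (1.91–4.52) in Experiment 2. These intervals treat UMIs as independent, whereas single cells held up to 10 and 4 Dcstamp UMIs in the non-efferocytic libraries of Experiments 1 and 2 and up to 3 and 7 in the efferocytic ones. With each cell thinned to 5000 UMIs drawn at random, cells of lower depth left out, Dcstamp was found in 12 of 7181 non-efferocytic and 5 of 6151 efferocytic cells of Experiment 1 (0.167% and 0.0813%) and in 19 of 10007 and 7 of 7903 cells of Experiment 2 (0.190% and 0.0886%). The 95% intervals of these shares overlapped in both experiments. The log2 fold change was -1.41 (SE 0.263; edgeR, adjusted p = 0.00451). It was -1.57 (edgeR, adjusted p = 0.00556) without clusters of few UMIs or of other cell types and -1.41 (adjusted p = 0.00581) without barcodes shared within an experiment. The alternative of macrophage-like clusters kept 1205 of 13411 non-efferocytic cells of Experiment 2. It left out cluster 2 there, which held most Dcstamp UMIs of that library. The call was lost with DESeq2 (-1.41, adjusted p = 0.0778), with libraries scaled to the number of cells (-0.79, adjusted p = 0.0510), with 10% of UMIs removed as free RNA (-1.53, adjusted p = 0.0696) and in macrophage-like clusters only (-1.47, adjusted p = 0.0748). It was also lost without the non-efferocytic library of Experiment 1 (adjusted p = 0.181) or Experiment 2 (adjusted p = 0.127) and without the efferocytic library of Experiment 2 (adjusted p = 0.0865), fits that could hold no block. Droplets with at most 100 UMIs, which hold free RNA and no cell, gave 4 and 1 Dcstamp UMIs in Experiment 1 (0.594 and 0.182 CPM for the non-efferocytic and efferocytic library) and 10 and 4 in Experiment 2 (1.39 and 0.698 CPM). The efferocytic level of Experiment 2 has a 95% counting interval of 0.190–1.79 CPM, which includes the 0.206 CPM of the cells, so that these counts are too low for a comparison with the cells in that library. In the non-efferocytic library of Experiment 2 the droplets, at 1.39 CPM from 10 UMIs, lay above the 0.600 CPM of the cells. In Experiment 1 the droplets gave 4 and 1 UMIs, also too few for a comparison with the cells. The efferocytic droplet interval there, 0.00460–1.01 CPM, included the 0.240 CPM of the cells.

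Ocstamp, the second fusion protein, gave 8 and 14 UMIs in the non-efferocytic libraries of Experiments 1 and 2 and 5 and 4 UMIs in the efferocytic ones. Its levels were 0.0790 and 0.101 CPM against 0.0400 and 0.0258 CPM, without overlap. The log2 fold change of -1.38 (SE 0.634) did not pass the test (edgeR, adjusted p = 0.120). In droplets with at most 100 UMIs, Ocstamp gave 1 and 0 UMIs in Experiment 1 and 9 and 8 in Experiment 2 (1.25 and 1.40 CPM for the non-efferocytic and efferocytic library). In Experiment 2 these levels lay above those of the cells, and the counts of Experiment 1 are too low to compare.

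Oscar gave 2 UMIs in each non-efferocytic library, 1 in the efferocytic library of Experiment 1 and 0 in that of Experiment 2. Calcr gave 0 UMIs in the cells of all 4 libraries, and 1 UMI in the droplets with at most 100 UMIs of each library of Experiment 1. A count of 0 allows a level of up to 0.0193 to 0.0296 CPM (3 UMIs in a library), for counting error only, so that a difference between the groups was not detectable for either gene at this depth. Neither gene passed the filter on low counts.

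Efferocytic cells held more UMIs, and scales that keep this difference give other values. For each 1000 cells, Tnfrsf11a gave 435 UMIs in the non-efferocytic and 634 in the efferocytic library of Experiment 1, and 344 and 829 in Experiment 2. On the same scale Acp5 gave 356 and 557 UMIs in the first and 355 and 432 in the second experiment, and Nfatc1 gave 337 and 400 and then 251 and 421. On this per-cell scale the 3 genes were higher in both efferocytic libraries, while Dcstamp was lower, with 8.33 and 4.48 UMIs in Experiment 1 and 6.19 and 3.81 in Experiment 2. With that scaling the log2 fold change was 0.46 for Acp5 (SE 0.270; edgeR, adjusted p = 0.129) and 0.50 for Nfatc1 (SE 0.271; adjusted p = 0.104), both reversed in sign, while the median over all genes moved from -0.02 to 0.60. Deeper sequencing of a cell and more RNA in it cannot be told apart. The number of barcodes counted as cells also enters this scale, and each library held more here than the study lists. By the higher UMI threshold of Cell Ranger's rule, the non-efferocytic library of Experiment 2 held 10615 cells instead of 13411. The efferocytic one held 7921 instead of 8408. In Experiment 1 these were 7549 instead of 8280 and 6158 instead of 6695. The part of barcodes of few UMIs in the per-cell values was not tested.

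The share of cells with a UMI was compared with each cell thinned to 5000 UMIs, which left out cells below that depth (1099 and 3404 cells of the non-efferocytic libraries of Experiments 1 and 2, 544 and 505 of the efferocytic ones). At this equal depth, Tnfrsf11a was found in 15.8% and 15.3% of non-efferocytic cells and in 15.5% and 20.5% of efferocytic cells, in the same order of experiments. Only the efferocytic library of Experiment 2 stood apart, as in CPM (plot of shares at equal depth). Acp5 was found in 11.8% and 12.5% of non-efferocytic cells and in 12.5% and 9.83% of efferocytic cells, and Nfatc1 in 13.5% and 12.5% against 10.8% and 10.9%. Nfatc1 was the 1 gene of these 3 whose share was lower in both experiments. At full depth the shares were larger and in each experiment higher in efferocytic cells, for example 31.6% and 41.8% for Tnfrsf11a in Experiment 1 and 25.9% and 51.2% in Experiment 2.

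**Figure D2:**
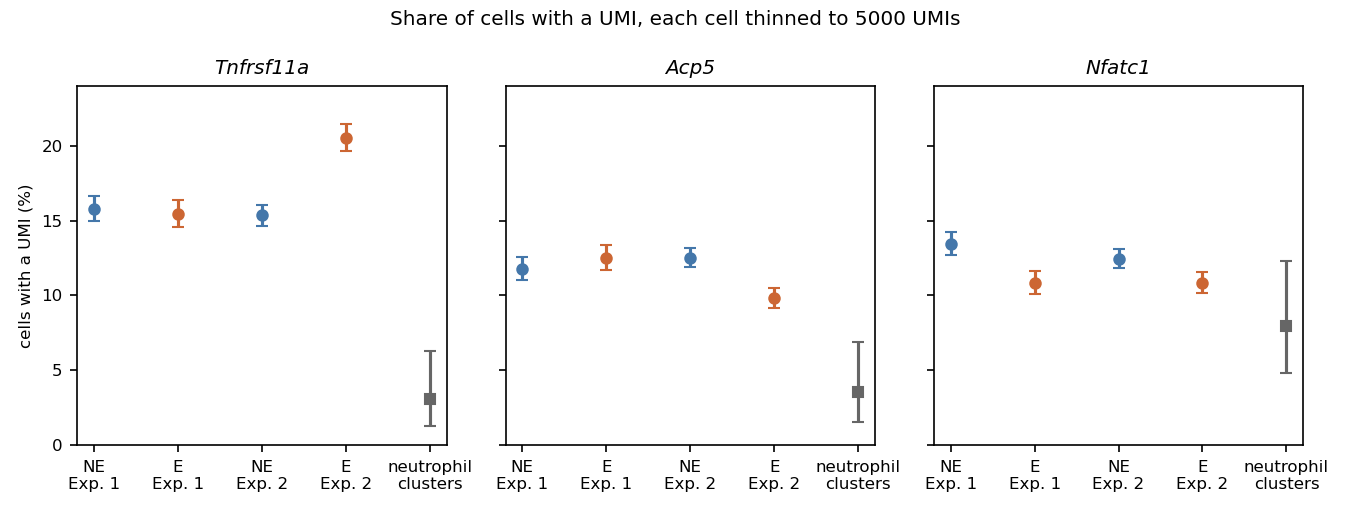
Share of cells with a UMI (%) of Tnfrsf11a, Acp5 and Nfatc1, each cell thinned to 5000 UMIs, in the 4 libraries (circles) and in clusters led by neutrophil genes over all libraries (grey squares), with exact (Clopper-Pearson) 95% intervals for counting error. Tnfrsf11a reaches 20.5% in the efferocytic library of Experiment 2 and 15.3% to 15.8% in the others, against 3.10% in neutrophil clusters.

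Cells of clusters led by neutrophil genes gave a background for these shares. Among 226 such cells with 5000 UMIs, Tnfrsf11a was found in 3.10% (95% interval 1.25–6.28), Acp5 in 3.54% (1.54–6.86) and Nfatc1 in 7.96% (4.79–12.3). All other cells gave 16.9%, 11.7% and 12.0%, respectively, with a median depth before thinning of 12807 UMIs against 16373 UMIs in the neutrophil clusters. Pooled over the libraries, the shares of Tnfrsf11a and Acp5 lay above these intervals, while the interval of Nfatc1 in neutrophil clusters reached the share in other cells. The intervals cover counting error only. In the efferocytic libraries of Experiments 1 and 2, neutrophil clusters gave Acp5 in 2 of 23 and 1 of 21 cells. Tnfrsf11a was in 0 of 23 and 0 of 21, too few cells to compare within a library. All 3 genes were also plentiful in free RNA. Acp5 gave 37.8 to 42.1 CPM in droplets with at most 100 UMIs, above its level in the cells of each library. Nfatc1 gave 35.5 and 33.0 CPM there in Experiment 1 and 18.2 and 21.8 CPM in Experiment 2. Tnfrsf11a gave 17.8 and 19.4 CPM there in Experiment 1 and 22.7 and 28.6 CPM in Experiment 2, below its level in the cells of each library.

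Cells with UMIs of several of these genes were about as frequent as independent detection would give. At 5000 UMIs, 63.8% to 65.9% of the cells of a library held no UMI of the 7 genes, 29.4% to 31.3% held UMIs of 1 gene, 4.37% to 4.92% of 2 genes and at most 0.270% of 3. No cell held UMIs of 4 or more. Acp5 and Nfatc1 were found together in 106, 83, 139 and 70 cells (non-efferocytic and efferocytic library of Experiment 1, then Experiment 2), which is 0.931, 0.997, 0.891 and 0.830 times the product of their shares. For Acp5 with Tnfrsf11a the ratio was 0.823, 0.952, 0.905 and 1.01 in the same order, and for Nfatc1 with Tnfrsf11a 1.04, 1.06, 1.03 and 1.10. The 95% counting interval lay below 1 in the non-efferocytic library of Experiment 1 for Acp5 with Tnfrsf11a (0.677–0.992) and included 1 in the other 11 values. No group difference in co-detection was detectable within these intervals. At this depth Dcstamp was too rare for its pairs, with at most 4 cells shared with another of the 7 genes in a library. At full depth, which differs between cells, it shared 13, 16, 29 and 5 cells with Acp5 (ratios 1.65, 2.36, 2.10 and 0.982). With Tnfrsf11a these were 24, 13, 25 and 10 cells (2.24, 1.48, 1.53 and 1.03). With Nfatc1 they were 8, 7, 18 and 3 cells (0.863, 1.06, 1.35 and 0.478). No intervals were computed for these ratios.

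Acp5, Nfatc1, Tnfrsf11a and Dcstamp were unevenly spread over clusters of cells, while Ocstamp, Oscar and Calcr gave too few UMIs to judge this. The clusters were computed for each experiment without the 7 genes and then described by their leading genes. Clusters were mostly made of 1 library, so that a cluster and a group can hardly be told apart, and no test was made. Levels are compared among clusters of at least 100 cells in a library, clusters of few UMIs left out. Among these, Acp5 was highest in both experiments in cluster 2, led by Slamf8 and Matk and, in Experiment 1, by H2-Aa and H2-Ab1 (MHC class II). Its level there was 44.7 CPM in non-efferocytic and 61.7 CPM in efferocytic cells of Experiment 1, and 40.8 and 47.5 CPM in those of Experiment 2. It was lowest in clusters led by Trib3, Phgdh and Mgam (cluster 6) in Experiment 1 and by Prss46, Mgam and Phgdh (cluster 7) in Experiment 2, with 10.9 and 12.4 CPM in Experiment 1 and 7.57 and 11.3 CPM in Experiment 2. Phgdh encodes an enzyme of serine synthesis and Trib3 a stress-induced pseudokinase. The highest and the lowest of these clusters thus differed 4.09- to 5.39-fold within a library, more than any pair of libraries did. With clusters of few UMIs included, the fold in the efferocytic library of Experiment 2 was 5.64, from a cluster with 3 Acp5 UMIs. Outside these limits, Acp5 was higher still in a cluster of Experiment 2 led by the T cell genes Trbc2, Cd3d and Cd3g. It held 24 Acp5 UMIs in 72 non-efferocytic cells (199 CPM, 95% counting interval 128–296) and 18 in 63 efferocytic cells (174 CPM, 103–276), with a median of 1464 UMIs in a cell. The 60 non-efferocytic cells of the Cdkn1c and Pdpn cluster of Experiment 2 also lay above cluster 2, at 53.6 CPM (39.8–70.6).

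Nfatc1 had another order of clusters than Acp5. It was at 32.7 CPM in the largest non-efferocytic cluster of Experiment 1 (cluster 0, led by Gpr34, Ier3 and Hpgd, 4275 cells) and at 20.4 CPM in cluster 2, where Acp5 was highest. In Experiment 2 it was at 28.6 CPM in the largest non-efferocytic cluster (cluster 0, led by H2-Eb1, H2-Aa and H2-Ab1, 6246 cells) and at 19.8 CPM in cluster 2. The fold between its highest and lowest cluster was 2.45 to 2.68 within a library, and 2.68 to 3.87 with clusters of few UMIs included. Among clusters of at least 100 cells without few UMIs, Tnfrsf11a was highest in a different cluster of each library. In Experiment 1 these were the Cdkn1c and Pdpn cluster in non-efferocytic cells (52.6 CPM in 186 cells) and a cluster led by Arg1, Ankrd37 and Egln3 in efferocytic cells (46.1 CPM in 338 cells). In Experiment 2 they were the Cnrip1 cluster in non-efferocytic cells (46.2 CPM in 136 cells) and a cluster of histone and replication genes, led by Hist1h2ap, Hist1h1b and Uhrf1, in efferocytic cells (54.8 CPM in 336 cells). The Cdkn1c and Pdpn cluster was at 37.7 CPM in efferocytic cells of Experiment 1 and at 49.3 CPM in those of Experiment 2, near the library levels of 34.0 and 44.9 CPM. Outside these limits, the 37 non-efferocytic cells of the histone and replication cluster of Experiment 2 were at 69.0 CPM (95% counting interval 51.8–90.0), and a cluster of few UMIs with 734 non-efferocytic cells of Experiment 2 was at 60.9 CPM (48.3–75.8). In Experiment 1 a cluster of few UMIs led by Tfrc and Rbm45 was at 60.3 CPM (35.7–95.3) in 109 non-efferocytic cells and at 51.6 CPM (37.3–69.5) in 197 efferocytic cells, intervals that include the levels named as highest there. The lowest level of Tnfrsf11a within these limits was 12.1 CPM, in the non-efferocytic cells of the cluster led by the neutrophil genes Ngp, Camp and S100a9. It was lowest in cluster 6 in non-efferocytic cells of Experiment 1 (23.1 CPM) and in cluster 7 in efferocytic cells of Experiment 2 (25.3 CPM). In efferocytic cells of Experiment 1 it was lowest in cluster 0 (19.6 CPM).

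Dcstamp was concentrated in few clusters (plot of level by cluster). In non-efferocytic cells, cluster 2 held 44 of the 69 UMIs of Experiment 1 and 62 of the 83 of Experiment 2, at 1.78 and 1.42 CPM. It held 19.1% and 23.9% of the cells and 24.4% and 31.5% of the UMIs of all genes. The Cdkn1c and Pdpn cluster held a further 17 UMIs of the non-efferocytic library of Experiment 1 (5.05 CPM in 186 cells). In efferocytic cells it held 15 of 30 UMIs in Experiment 1 (0.385 CPM) and 23 of 32 UMIs in Experiment 2 (0.467 CPM). Its share of the efferocytic UMIs of all genes was 31.2% and 31.7%. Among clusters of at least 100 cells, the highest Dcstamp level in efferocytic cells of Experiment 1 was 0.900 CPM. It was in the cluster led by Cenpf, Hmmr and Nusap1. Cluster 2 had few efferocytic cells, 230 and 108 in Experiments 1 and 2, with 1 and 2 Dcstamp UMIs, against 1578 and 3200 non-efferocytic cells. Its level in efferocytic cells was 0.218 CPM (95% counting interval 0.00552–1.22) in Experiment 1, below the 1.78 CPM (1.30–2.40) of non-efferocytic cells, and 1.08 CPM (0.131–3.90) against 1.42 CPM (1.09–1.83) in Experiment 2. In the Cdkn1c and Pdpn cluster of Experiment 1 Dcstamp was also lower in efferocytic cells, at 0.385 CPM against 5.05 CPM. The efferocytic libraries thus had few cells of cluster 2, and in Experiment 1 lower levels within both clusters. The part of cluster makeup in the lower level of Dcstamp in efferocytic libraries was not tested. The largest efferocytic clusters (cluster 1 of each experiment, led by Cnrip1) held 3 Dcstamp UMIs in 3262 cells and 4 in 4347 cells.

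**Figure D3:**
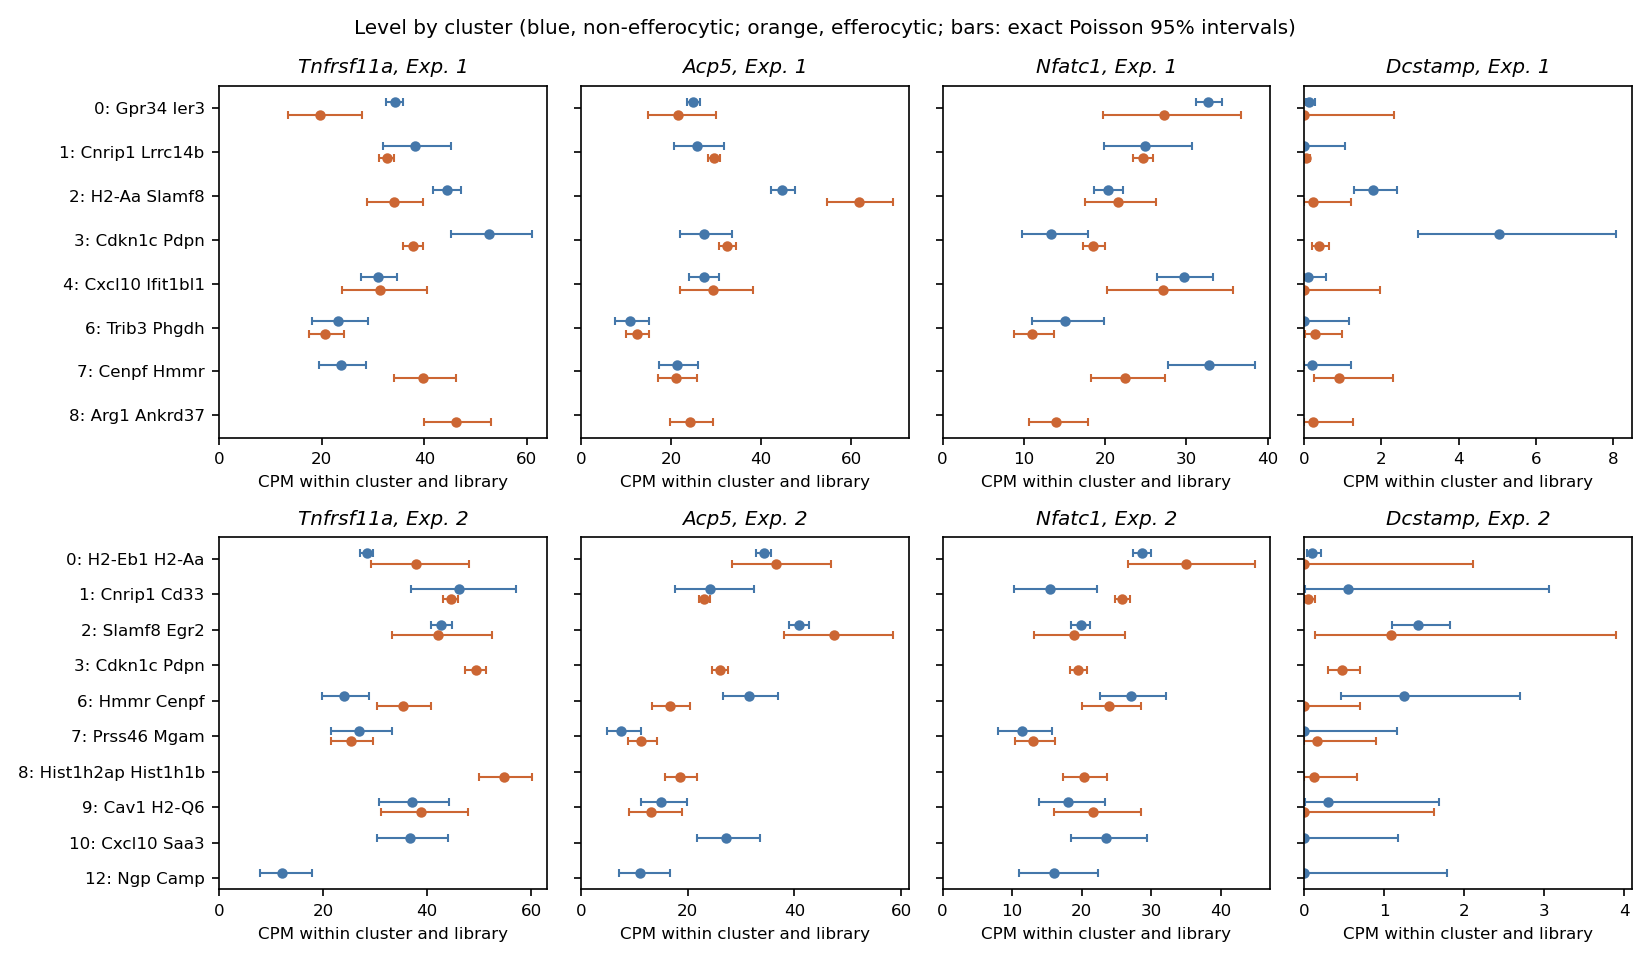
Level (CPM within cluster and library) of Tnfrsf11a, Acp5, Nfatc1 and Dcstamp in the clusters of Experiment 1 (upper row) and Experiment 2 (lower row) with at least 100 cells in that library, clusters of few UMIs left out. Points are non-efferocytic (blue) and efferocytic (orange) cells with exact Poisson 95% intervals, and clusters are labelled by 2 leading genes. Of the clusters drawn, Acp5 is highest in cluster 2 of both experiments (40.8 to 61.7 CPM), where Dcstamp of non-efferocytic cells is at 1.78 and 1.42 CPM.

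Correlations across single cells were weak for all 3 abundant genes. Cells were thinned to 5000 UMIs, and genes were ranked by the lowest of their 4 Pearson correlations, 1 in each library, over 6495 genes found in at least 5% of the cells. The points are cells of the same library. Nearest to Acp5 were Cd52, with a correlation of at least 0.108 in every library, and Cyba, Crip1, Tyrobp and S100a11, with at least 0.0627. Nearest to Tnfrsf11a were Cd36, at 0.0748 or more, Lcp1, C5ar1, Lpl and Dab2, and nearest to Nfatc1 were Serinc3, at 0.0467 or more, mt-Atp6, mt-Co3, Selenop and mt-Co2. None of the 3 genes was among the nearest of another, and their correlations with each other lay between -0.0224 and 0.0195. In counts this sparse, correlations of this size are a description only.

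Other genes of osteoclast differentiation were read from the same fit in 7 lists. Of 93 tested genes of these lists, 21 rose, 24 fell and 48 did not pass the test. This is 48.4% called, against 38.9% of all tested genes, and a median log2 fold change of 0.03 against -0.02. The plot of changes by list shows their spread. Of the resorption machinery 61.1% was called higher, of cell fusion 38.5% and of ITAM and calcium signalling 28.6%, against 19.9% of all tested genes. Of the activating transcription factors 68.8% was called lower, of the repressors 42.9% and of RANK and M-CSF receptor signalling 20%, against 19.0% of all tested genes. In either direction, cell fusion was near the background, with 38.5% called against 38.9%. ITAM and calcium signalling was below it, with 28.6%, as was RANK signalling, with 20%. Without clusters of few UMIs or of other cell types, 89 genes of the lists could be tested, of which 19 were higher and 22 lower, against 18.0% and 17.4% of all genes tested there. Tec, Fosl1, Slc4a2 and Mmp9, named here because of these values, lost their call there, and Tnfrsf11b was too low to test. With libraries scaled to the number of cells, 54 of the 93 were higher and 9 lower, against 49.9% and 4.23% of all tested genes under that scaling, whose median moved to 0.60.

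**Figure D4:**
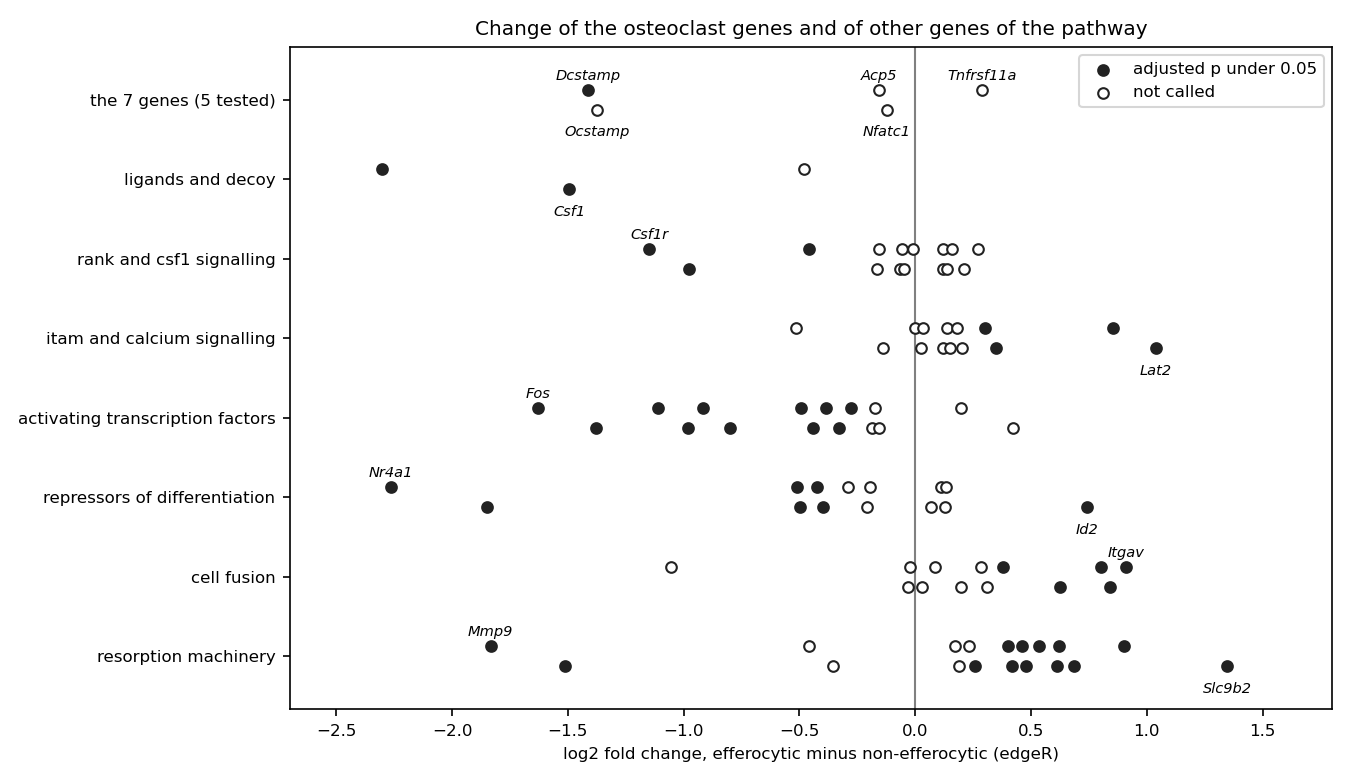
Log2 fold change (efferocytic minus non-efferocytic, edgeR) of the tested genes of each list. Filled points passed an adjusted p of 0.05 and open points did not, and the genes named by rule are labelled. Dcstamp is the 1 filled point among the 7 genes, 11 of 16 activating transcription factors are filled on the lower side and 11 of 18 genes of the resorption machinery on the higher side.

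Ligands were low, with UMIs of each gene in every library. Tnfsf11, which encodes RANKL, lay at 0.0129 to 0.0434 CPM and was not tested. Of the 3 tested genes, 2 fell. Csf1, which encodes M-CSF, fell from 4.48 ± 0.0494 CPM to 1.49 ± 0.374 CPM (SD, n = 2 libraries in each group), with a log2 fold change of -1.49 (SE 0.159; edgeR, adjusted p = 0.000423). Without clusters of few UMIs or of other cell types the change was -0.83 (edgeR, adjusted p = 0.0291). Tnfrsf11b, which encodes the RANKL decoy osteoprotegerin, went from 0.356 to 0.0240 CPM in Experiment 1 and from 0.651 to 0.174 CPM in Experiment 2 (-2.30, SE 0.420; edgeR, adjusted p = 0.00421). Its call was lost without the block (adjusted p = 0.104), and it had too few UMIs to be tested without clusters of few UMIs or of other cell types. Tnfrsf11b is also a gene of stromal cells, whose part in its change was not tested. The fibroblast markers were lower in both efferocytic libraries, as given above. Tnfrsf11b was named after its values were seen, as the other called gene of a short list. No gene of this list was called higher, at an unadjusted p under 0.05 or by DESeq2 either.

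Of 15 genes that signal below RANK and the M-CSF receptor, 3 fell and 12 did not pass the test, with none higher by edgeR (1 at an unadjusted p under 0.05 and 1 by DESeq2, Grb2). With libraries scaled to the number of cells, 8 were higher and 1 lower, a share near the 49.9% of all tested genes called higher there. Csf1r, the M-CSF receptor itself, fell from 849 to 364 CPM in Experiment 1 and from 732 to 300 CPM in Experiment 2 (log2 fold change -1.15, SE 0.109; edgeR, adjusted p = 0.000265). Map3k14 (NIK) and Mapk14 (p38α) were the other 2 that fell, by 0.98 and 0.46 on the log2 scale. Traf6, the adaptor of RANK, lay between 11.5 and 13.1 CPM in the 4 libraries (0.16, edgeR, adjusted p = 0.179). Of 14 genes of ITAM and calcium signalling, the costimulatory branch to which Oscar belongs, 4 rose (Lat2, Pira2, Tec and Plcg2) and none fell by edgeR, at an unadjusted p under 0.05 or by DESeq2. Without the block only Lat2 kept its call (edgeR, adjusted p = 0.0138), and with libraries scaled to their totals, which moves the median of all genes to -0.12, 2 were higher and 2 lower (13.3% and 26.7% of all tested genes). With libraries scaled to the number of cells, 13 were higher and none lower, again against 49.9% of all tested genes higher. Lat2, an adaptor of that branch, rose from 192 to 364 CPM and from 220 to 423 CPM (1.04, SE 0.0966; edgeR, adjusted p = 0.000245). The receptor chains Tyrobp (DAP12) and Fcer1g (FcRγ), the partner of Oscar, were abundant in all libraries, at 3374 to 4076 CPM and 3518 to 4042 CPM, and did not pass the test.

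Of 16 transcription factors that drive differentiation, 11 fell and 5 did not pass the test (median log2 fold change -0.41). None was called higher by edgeR, while 1 was at an unadjusted p under 0.05 and by DESeq2 (Jun). Fos was at 286 and 71.3 CPM in the non-efferocytic and efferocytic library of Experiment 1 and at 48.1 and 17.4 CPM in Experiment 2 (-1.63, SE 0.118; edgeR, adjusted p = 9.7e-05). The experiments differed more than the groups, and the call was lost without the block (adjusted p = 0.251). The NF-κB genes Nfkb1, Nfkb2 and Relb fell by 0.33, 0.80 and 1.11 on the log2 scale, whereas Rela did not pass the test (-0.17, edgeR, adjusted p = 0.102). Of 14 repressors of differentiation, 6 fell, 1 rose and 7 did not pass the test. Nr4a1 fell from 6.47 to 1.11 CPM and from 4.58 to 0.992 CPM (-2.27, SE 0.145; edgeR, adjusted p = 6.4e-05). Id2, an inhibitor of basic helix-loop-helix factors, rose from 104 to 126 CPM and from 64.0 to 128 CPM (0.74, SE 0.141; edgeR, adjusted p = 0.00498), and without the block its adjusted p was 0.0934. Without the block 4 of the activating factors and 1 of the repressors fell, against 7.74% of all tested genes, and none rose. With libraries scaled to the number of cells, 3 activating factors were higher and 2 lower, and 5 repressors higher and 2 lower, against 49.9% of all tested genes higher and 4.23% lower.

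Of 13 other genes of cell fusion, 5 rose (Itgav, Cd9, Adam8, Atp6v0d2 and Cd44), 8 did not pass the test and none fell by edgeR, at an unadjusted p under 0.05 or by DESeq2. Dcstamp and the 5 called genes thus lay on opposite sides. Of the 8 that did not pass the test, Adam12 (-1.06), Cd81 (-0.02) and Sbno2 (-0.03) lay on the side of Dcstamp and the others did not. In either direction 38.5% of this list was called, against 38.9% of all tested genes. Itgav, the integrin αv chain, rose from 33.6 to 56.7 CPM and from 26.7 to 48.3 CPM (0.91, SE 0.0742; edgeR, adjusted p = 0.000145). Atp6v0d2, a proton pump subunit that also takes part in fusion, rose from 202 to 319 CPM and from 239 to 310 CPM (0.62, SE 0.114; edgeR, adjusted p = 0.00420). Of 18 genes of the resorption machinery, 11 rose, 2 fell and 5 did not pass the test (median log2 fold change 0.41). Slc9b2, a sodium/proton antiporter of osteoclasts, rose from 1.47 to 3.13 CPM and from 1.26 to 3.31 CPM (1.35, SE 0.150; edgeR, adjusted p = 0.000514). Ctsk, which encodes cathepsin K, the collagen-degrading protease of osteoclasts, rose from 52.6 to 79.9 CPM and from 74.8 to 99.4 CPM (0.61, SE 0.0916; edgeR, adjusted p = 0.00185), while Acp5 had not passed the test. The call of Ctsk was lost without the block (adjusted p = 0.0844). Many of the genes that rose in this list are lysosomal proteins that macrophages also use, such as Atp6v1c1, Atp6v1b2, Atp6ap1, Clcn7 and Ostm1. The 2 that fell encode secreted or membrane-bound proteases, Mmp9 (3.24 to 0.960 CPM and 1.58 to 0.348 CPM; log2 fold change -1.83, SE 0.194; edgeR, adjusted p = 0.000423) and Mmp14 (-1.51, SE 0.176; adjusted p = 0.000634). Mmp9 is also a neutrophil gene and led a small neutrophil cluster here, and neutrophil markers were lower in efferocytic libraries. The part of neutrophils in the change of Mmp9 was not tested. Without clusters of few UMIs or of other cell types the change of Mmp9 was -1.37 and no longer called (edgeR, adjusted p = 0.119), whereas that of Mmp14 was -2.0 (adjusted p = 0.0109). Without the block 9 of the 18 rose and none fell, and 4 of the 13 fusion genes rose, against 9.27% of all tested genes higher. With libraries scaled to the number of cells, 14 of the 18 were higher and 2 lower, and 11 of the 13 fusion genes were higher and none lower, against 49.9% of all tested genes higher and 4.23% lower.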

How the data were processed

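Per the labels and the study's methods, the authors counted reads on mm10 with Cell Ranger 3.0.0 (3.1.0 in the file headers of Experiment 2). They deposited raw UMI counts of all barcodes, neither normalized nor filtered. The cell filter of the methods was applied here (200 genes, 1000 UMIs, 10% mitochondrial). Since cells are not replicates, each library's cell UMIs were added up per gene and tested with edgeR 4.0.16 in R 4.3.3 (TMM, filterByExpr, 13869 genes) with the experiment as a block, because the study compared groups within experiments. The pairing was checked: deviations from group means correlated within an experiment (0.800, 7097 genes). The threshold was an adjusted p of 0.05, and tests were checked on simulated counts. DESeq2 1.42.0, other scalings, gene filters, cell filters and each library left out were alternatives. Clusters (Leiden, resolution 0.5, 20 principal components of 5000 genes; scanpy 1.11.5, leidenalg 0.10.2) were computed without the 7 genes. Clusters called macrophage-like held macrophage markers, enough UMIs and no marker of another cell type among their 10 leading genes. Doublets were kept. An alternative removed those with the highest scores against simulated pairs, at 0.8% for each 1000 cells. Ratios, CPM and shares have exact 95% intervals that cover counting error only. Named were the 7 genes, the largest called change in each direction of each list (mean of at least 1 CPM, same direction in both experiments), the 5 genes most correlated with each abundant gene and leading genes of clusters, and further called genes of the lists were named after their values were seen. The 7 genes and the lists were chosen with earlier results of these data known.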

Additional observations from a re-analysis of the deposited data

Results flagged for a closer look

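Acp5 and Tnfrsf11a moved in opposite directions in the 2 experiments. The log2 ratio of efferocytic to non-efferocytic CPM was 0.034 for Acp5 in Experiment 1 and -0.56 in Experiment 2. For Tnfrsf11a it was -0.068 in Experiment 1 and 0.43 in Experiment 2. With 1 library of each group in an experiment, the difference between the experiments was not tested. The counting interval of the Acp5 ratio in Experiment 1 included 1. Tnfrsf11a was also higher in droplets with at most 100 UMIs of the efferocytic library of Experiment 2, at 28.6 CPM (95% counting interval 24.4–33.4) from 164 UMIs, against 22.7 CPM in the non-efferocytic library. These droplets hold free RNA and took no part in the comparisons.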

How the results depend on the processing

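Dcstamp stayed lower in all 17 alternatives that tested it and was called in 10 of them (adjusted p from 0.000257 to 0.181). Ocstamp stayed lower in all 12 that tested it and was never called (DESeq2 gave it no adjusted p), and Tnfrsf11a stayed higher in 18 and was called in 4. Acp5 turned to 0.46 with libraries scaled to UMIs per cell, to 0.12 in macrophage-like clusters only, which kept 1205 non-efferocytic cells of Experiment 2, and to 0.057 without the efferocytic library of Experiment 2. Nfatc1 turned to 0.50 and 0.026 under the first 2 of these. Causes were not tested.

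The number of the 7 genes called higher moved from 0 to 1 with UMIs per cell, without a filter on genes and with at most 5% mitochondrial UMIs, and was 0 to 1 when 1 library was left out. The number called lower moved from 1 to 0 with DESeq2, UMIs per cell, a mean of at least 10 CPM (which leaves Dcstamp untested), removal of free RNA and macrophage-like clusters only, and was 0 to 1 when 1 library was left out. Fits that leave out a library have no block, and the lone library is assumed to vary like the others. Genes called higher among all tested were 6921 of 13869 with UMIs per cell and 2977 of 19447 without a filter on genes. With at most 5% mitochondrial UMIs they were 2804 of 13784.

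Over all genes, 2761 were higher and 2636 lower. Without the replicate block these were 1285 and 1073, with UMIs per cell 6921 and 586, among genes of at least 10 CPM 1473 and 1553, without free RNA 1324 and 1015 and in macrophage-like clusters only 406 and 430. DESeq2 called 1417 lower. Scaling to library totals gave 1847 higher and 3700 lower. When 1 library was left out, 0 to 1658 were higher and 0 to 1275 lower (630 and 574 without the efferocytic library of Experiment 2). Of the genes in the 7 lists, 21 were higher and 24 lower. These were 54 and 9 with UMIs per cell, 7 and 9 in macrophage-like clusters only, and 9 lower without the block. When 1 library was left out they were 0 to 18 and 0 to 17.

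At full depth the ratio of the efferocytic to the non-efferocytic share of cells in Experiments 1 and 2 moved from 1.06 and 0.785 to 1.40 and 1.22 for Acp5, from 0.806 and 0.872 to 1.16 and 1.55 for Nfatc1 and from 0.979 and 1.34 to 1.32 and 1.98 for Tnfrsf11a. With cells thinned to 2000 UMIs that of Nfatc1 in Experiment 2 was 0.952. The median co-detection ratio over the 4 libraries was 0.911 for Acp5 with Nfatc1 (1.20 at full depth, 0.781 at 2000 UMIs), 0.928 for Acp5 with Tnfrsf11a (1.16 and 0.805) and 1.05 for Nfatc1 with Tnfrsf11a (1.15 and 0.923).

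The alternatives without shared barcodes and without clusters of few UMIs or other cell types were chosen after seeing the data. Depth limits Calcr, Oscar and Ocstamp, with 0 to 14 UMIs in a library, and with 2 libraries in a group 1 library can end a call.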
